A study of Saccharomyces cerevisiae with 16 samples.

Results

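Cryptic unstable transcripts (CUTs) are short noncoding RNAs made by RNA polymerase II (RNAPII) in budding yeast. They were chosen here as every transcript that the table of the series places in the class CUT, which gave 844 of 12670 transcripts. The labels compared wild type (WT) Saccharomyces cerevisiae with rrp6Δ cells, which lack the exosome nuclease Rrp6, and with rtr1Δ rrp6Δ cells, which also lack the RNAPII C-terminal domain phosphatase Rtr1. There were 4 WT libraries, 3 rrp6Δ libraries (replicates 1, 3 and 4) and 4 rtr1Δ rrp6Δ libraries. All strains were isogenic to BY4741, a laboratory strain, and were grown untreated to an OD600 of 0.8. The rrp6Δ cells were a knockout collection strain. A kanamycin cassette was put in place of RTR1 in that strain to give the rtr1Δ rrp6Δ cells, so both deletion strains lack RRP6 and each is a single strain. Per the study's methods, the strains of each biological experiment were grown on the same day, read here as the same replicate number. The rtr1Δ libraries and rrp6Δ replicate 2 were not analysed here.

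Most CUTs start at the nucleosome-free regions of promoters, often running away from or antisense to a gene. In WT cells Nrd1 and Nab3 bind short motifs in the nascent RNA and, with the helicase Sen1, stop RNAPII early. The TRAMP complex then adds a short oligo(A) tail and hands the RNA to the nuclear exosome, whose Rrp6 subunit degrades it from the 3' end. CUTs were first annotated as transcripts that appear when RRP6 is deleted, so a rise of the class in rrp6Δ cells is the property that defined it and not an independent finding.

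Library totals ran from 28765694 to 38578463 counts, so 1 count was worth between 0.0259 and 0.0348 CPM, the count scaled to the size of its library. Counts of RRP6 were 3605 to 5503 per WT library and 8 to 22 per deletion library. Counts of RTR1 were 548 to 762 per WT library, 417 to 575 per rrp6Δ library and 35 to 56 per library of the double deletion. The CUT names ran from CUT001 to CUT925 with 841 numbers present, besides CUT689* and 2 transcripts named newCUT, and 84 numbers were not analysed here. No CUT had fewer than 226 counts over the 11 libraries, and no transcript of any class fewer than 181. Of the CUTs, 641 had fewer counts over the WT libraries than that lowest total over all 11 libraries. The sums cover unlike numbers of libraries, so a CUT that did not rise can be among them. CUT359, with 35 to 54 counts per WT library and 26 to 49 per rrp6Δ library, is such a CUT. How many CUTs are listed only through their level in the deletion strains was not determined. No count of risers below describes all CUTs of the genome.

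The table holds counts but no CUT coordinates. Some CUTs could be placed because their counts were within 1% of those of another transcript, measured as the summed absolute difference over the 11 libraries. This held for 60 CUTs, 6 of them with identical counts in every library. Just outside this limit, newCUT2 and CUT453 differed by 1.12%, below the 2.81% expected of independent draws, so these CUTs are not separable by their counts. There were 35 CUTs matched to a Nrd1-unterminated transcript (NUT), 17 to an Ssu72-restricted transcript and 18 to an antisense transcript (AST), so the RNA of these CUTs is also counted under a second name. The AST of a named gene was matched by 16 CUTs. Of these genes, 8 lie on the C strand, opposite CUTs numbered up to CUT435, and 8 on the W strand, opposite CUT476 and higher. Within each set the CUT numbers followed chromosome and position, in all 14 steps over both sets, and in the 34 steps between NUT matches both numbers rose together. A CUT number therefore gives an order along one strand.

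The matched gene with the most CUT counts was CMC4 (YMR194C-B), which encodes a protein of the mitochondrial intermembrane space. Next came JLP2 (YMR132C) and REC102 (YLR329W), the latter a meiotic recombination gene. CUT306 and the AST of CMC4 differed by 0.812%, above the 0.505% expected of independent draws, so this match is not exact. The differences were 0.559% for CUT301 and the AST of JLP2 and 0.335% for CUT746 and that of REC102. These were below the 2.05% and 2.71% expected. The sequences are shown because they are the strand on which these CUTs could be placed, and whether the marked letters are bound was not tested. They are the genome strand opposite each gene, 5′ to 3′, from RefSeq build R64 (the sacCer3 genome), with TGTA, a motif preferred by Nrd1, and TCTT, preferred by Nab3, in capitals. For CMC4 the whole gene span is shown, chrXIII:652594-652887, read on the plus strand. For JLP2 the 120 bases with the most matches are shown, chrXIII:534986-535105 on the plus strand, and for REC102 the 120 bases are chrXII:787214-787333 on the minus strand.
CUT306, opposite CMC4: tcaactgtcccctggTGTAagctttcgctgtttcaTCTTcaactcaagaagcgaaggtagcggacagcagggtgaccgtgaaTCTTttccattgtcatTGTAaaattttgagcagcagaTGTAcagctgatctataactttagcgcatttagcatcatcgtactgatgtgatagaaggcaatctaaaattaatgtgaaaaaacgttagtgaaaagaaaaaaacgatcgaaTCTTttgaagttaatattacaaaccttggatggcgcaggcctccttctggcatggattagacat
CUT301, opposite JLP2: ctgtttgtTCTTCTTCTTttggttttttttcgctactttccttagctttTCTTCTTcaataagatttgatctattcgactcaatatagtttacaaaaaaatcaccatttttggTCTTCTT
CUT746, opposite REC102: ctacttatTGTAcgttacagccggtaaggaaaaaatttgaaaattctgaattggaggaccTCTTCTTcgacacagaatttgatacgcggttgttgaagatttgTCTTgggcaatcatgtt

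The CMC4 strand held 3 TGTA and 3 TCTT matches, with no overlap between the motifs. Such letters are common, since 75.8% of 25564 windows of 294 bases opposite the genes of the table held TGTA, 93.5% held TCTT and 70.7% held both. At least as many matches as opposite CMC4 were found in 35.0% of these windows. The JLP2 stretch held 7 TCTT and 0 TGTA matches, and the REC102 stretch 3 TCTT and 1 TGTA. Of 66510 windows of 120 bases, 44.0% held TGTA, 70.4% held TCTT, 0.994% had as many matches as the JLP2 stretch and 14.2% as many as the REC102 stretch, which were themselves picked for their matches. Over the 16 matched genes the opposite strand had a median of 6.23 TGTA and 11.2 TCTT per kb, beside 4.71 and 11.2 over 5586 genes. TCTT was thus as frequent there as opposite genes in general. The ends of the CUTs within or beyond these spans are not given by the table.

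CUTs made up a small share of each library. The share of all counts was 0.132%, 0.120%, 0.128% and 0.109% in the WT libraries. In the rrp6Δ libraries it was 0.830%, 0.849% and 0.744%, and in the rtr1Δ rrp6Δ libraries 0.711%, 0.778%, 0.773% and 0.718%. Every deletion library lay above every WT library. The means were 0.122% ± 0.0103 (SD, n = 4), 0.807% ± 0.0562 (SD, n = 3) and 0.745% ± 0.0352 (SD, n = 4), that is 6.61 and 6.10 times the WT share. The median CUT had at most 23.0 counts per WT library and at least 124 per deletion library, and 151 to 216 CUTs had under 10 counts in a WT library while 0 did in a deletion library.

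**Figure D1:**
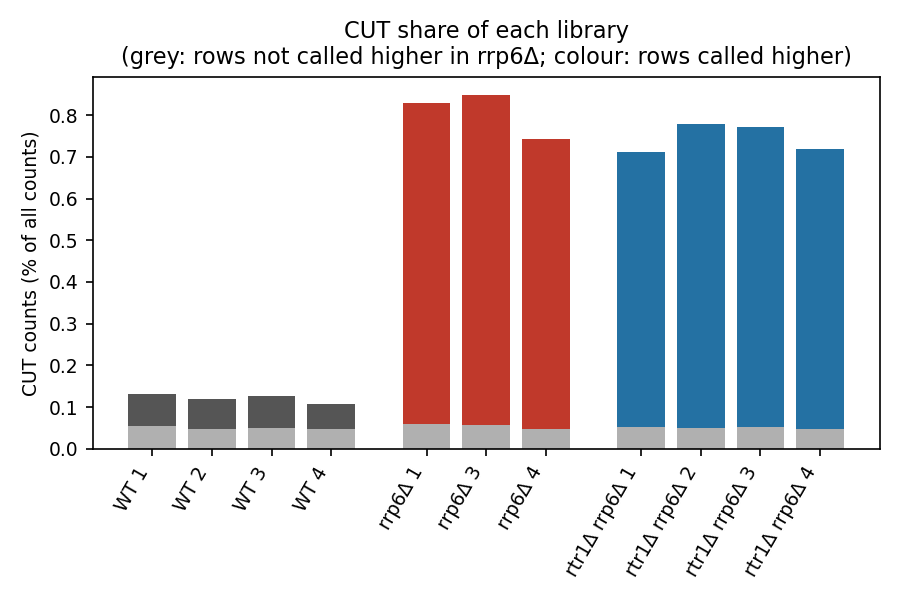
CUT counts as a percentage of all counts (vertical axis) in each of the 11 libraries (horizontal axis), split into CUTs that were called higher in rrp6Δ than in WT (colour) and all others (grey). The coloured part holds at most 0.0786% of all counts in WT and at least 0.659% in the deletion strains and the grey part 0.0474% to 0.0594% in every library, a contrast that the split by the call itself fixes.

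In rrp6Δ cells 763 of the 844 CUTs (90.4%) rose and 1 fell, with a median log2 fold change of 2.68. Here and below a transcript was called when edgeR's quasi-likelihood test gave an adjusted p of at most 0.05 over all 12670 transcripts and the change was at least 1.5-fold. Of all transcripts, 36.2% were called higher and 7.70% lower. The 4589 called higher include 1592 of the 3055 ASTs. Per the study's methods, the ASTs kept for its final comparison were those that changed significantly in rrp6Δ cells. This background was thus itself partly selected on the rrp6Δ response. The rise was at least 2-fold for 745 CUTs, at least 4-fold for 610, at least 16-fold for 116 and at least 64-fold for 16. All 3 rrp6Δ libraries lay above all 4 WT libraries for 758 CUTs. These counts by fold and by library were made for CUTs alone, so no share over all transcripts stands beside them. Scaling on ORF-Ts alone gave a median of 2.97. The middle range of the log2 fold change, from the lower to the upper quartile, was 1.92 to 3.46. With the CUTs ordered by mean count over all 11 libraries and split into 4 sets of 211, the number called higher was 179, 197, 202 and 185. This order includes the deletion libraries, where the risers are high, so it cannot show how the calls depend on coverage. Of the 200 CUTs highest in WT, 144 were called higher in rrp6Δ.

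CUTs had the highest share of risers among the 8 classes of the table, but not the highest median. The class of small nuclear and nucleolar RNAs was called higher for 122 of 158 transcripts (77.2%), with a median log2 fold change of 2.80, above that of the CUTs. That class also holds transcripts with RT in their names, which were not separated here, so these values do not describe the small RNAs alone. NUTs, which extend past Nrd1-dependent terminators, were called higher for 1221 of 1442 (84.7%, median log2 fold change 1.79). Stable unannotated transcripts (SUTs), which survive with Rrp6 present, were called higher for 335 of 719 (46.6%, median 0.55). Transcripts of open reading frames (ORF-Ts) were called higher for 243 of 5836 and lower for 742, with a median of -0.29. The differences between classes were not tested and describe the annotation as much as the cells, because CUTs and NUTs were defined in mutants of this pathway.

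**Figure D2:**
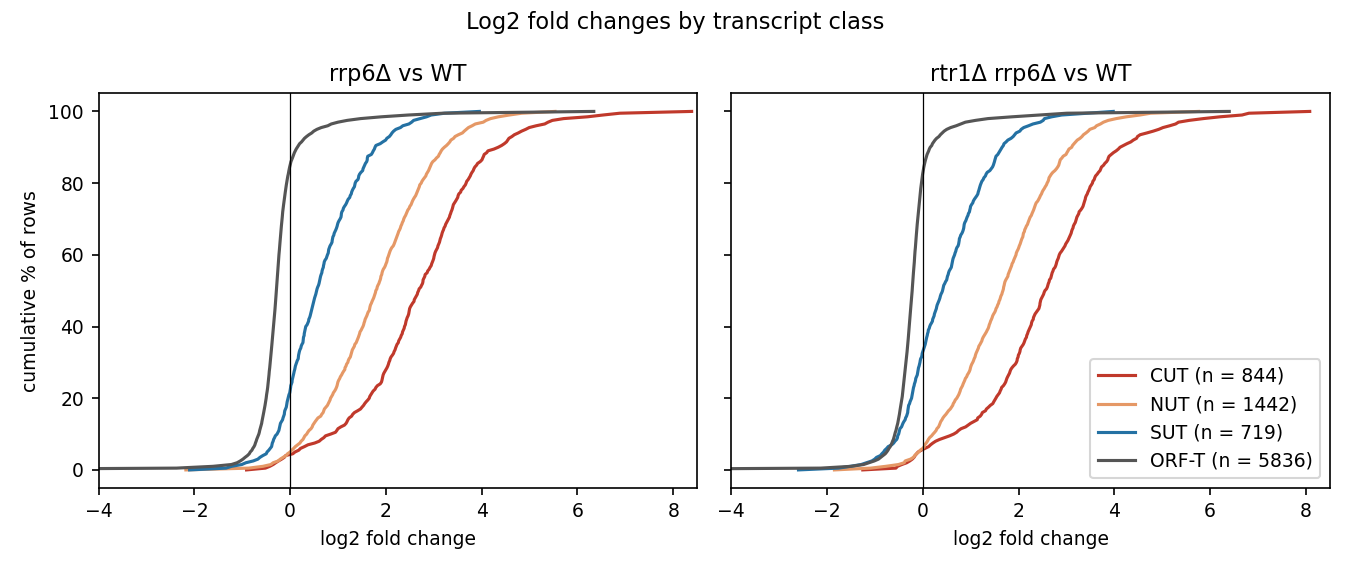
Cumulative percentage of transcripts (vertical axis) at or below each log2 fold change (horizontal axis) in rrp6Δ and in rtr1Δ rrp6Δ cells relative to WT, for CUTs, NUTs, SUTs and ORF-Ts. In both panels the order from left to right is ORF-T, SUT, NUT and CUT, with CUT medians of 2.68 and 2.55.

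The largest rise was that of CUT222. It had 0.636, 0.525, 0.596 and 0.787 CPM in the WT libraries, 192, 235 and 218 CPM in rrp6Δ, and 168, 180, 176 and 172 CPM in rtr1Δ rrp6Δ cells. WT and deletion libraries were far apart and the deletion libraries were close to each other. The rise was 334-fold in rrp6Δ (log2 8.38 ± 0.14 SE, adjusted p = 1.1e-11) and 271-fold in the double deletion.

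Both numbered neighbours of CUT222 rose, as did 90.4% of CUTs. CUT221 had 3.63 to 7.03 CPM in WT, 450 to 568 CPM in rrp6Δ and 431 to 488 CPM in rtr1Δ rrp6Δ cells, a 94.0-fold rise in rrp6Δ. CUT223 had 0.188 to 0.353 CPM in WT and 33.6 to 38.0 CPM in rrp6Δ, a 119-fold rise. No library of either deletion strain reached down to the WT range for these CUTs. Over all 764 pairs of consecutive CUTs the log2 fold changes in rrp6Δ had a Pearson correlation of 0.144, a description of pairs that share libraries and may share RNA.

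CUT433 had 0.422 to 1.02 CPM in WT and 162, 202 and 169 CPM in rrp6Δ, a 245-fold rise (log2 7.94 ± 0.21 SE, adjusted p = 7.9e-11). CUT681 had 0.113 to 0.495 CPM in WT and 42.7 to 55.1 CPM in rrp6Δ, a 126-fold rise. Its counts differed by 1.05% from those of a transcript named SNR37-RT, below the 1.49% expected of independent draws, so the CUT and that transcript, named after the snoRNA SNR37, are not separable in this table. CUT543 rose 124-fold and CUT307 114-fold in rrp6Δ. CUT150 had 0.675 to 2.62 CPM in WT and 147 to 160 CPM in rrp6Δ, a 90.9-fold rise. Each of these CUTs also rose in rtr1Δ rrp6Δ cells, between 100.4-fold and 219-fold.

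Some CUTs were close to undetected in WT. CUT920 had 1, 1, 0 and 2 counts in the WT libraries and 2.99 to 4.06 CPM in rrp6Δ, with a fitted log2 fold change of 6.70 ± 0.32 (SE). CUT338 had 1 count over all 4 WT libraries against 138 counts in rrp6Δ and 202 in rtr1Δ rrp6Δ cells. The ratio of these counts, scaled to library size, was 191 (95% exact interval 33.7 to 7589) in rrp6Δ and 195 (34.6 to 7743) in the double deletion, intervals that cover counting error only. No CUT was at 0 in every WT library. The size of the largest rises is therefore set in part by a few WT counts.

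**Figure D3:**
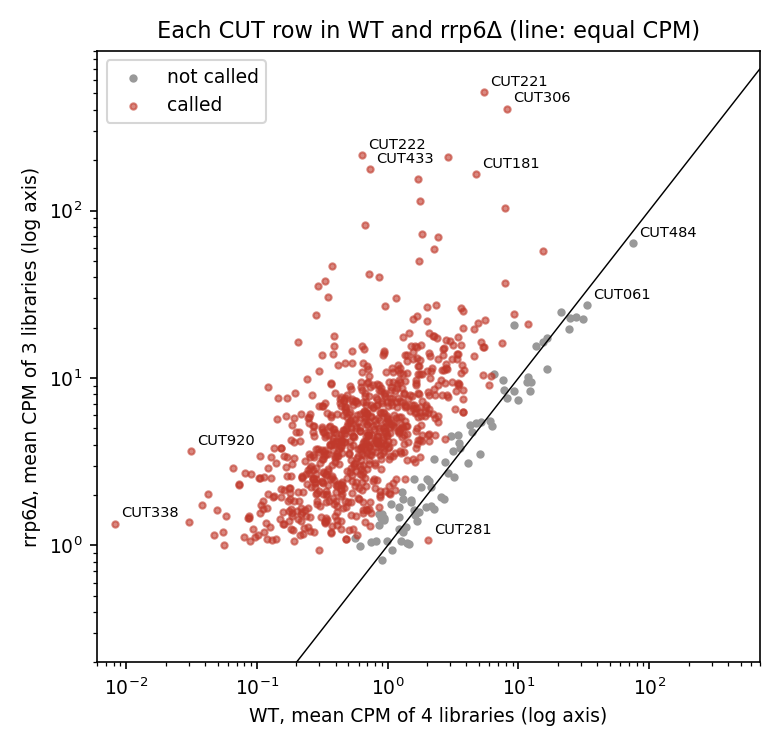
Mean CPM in rrp6Δ (vertical log axis, 3 libraries) against mean CPM in WT (horizontal log axis, 4 libraries), 1 point per CUT, with called CUTs in red and the line of equal CPM in black. The upper group led by CUT221 and CUT306 lies far above the line, while CUT484, CUT061 and other CUTs that are high in WT lie on it.

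The 8 CUTs with the most reads in WT were not among the 8 with the most reads in rrp6Δ. In WT cells the largest shares of CUT counts belonged to CUT484 (5.72%), CUT061 (2.60%), CUT628 (2.37%), CUT727 (2.14%), CUT155 (1.92%), CUT729 (1.87%), CUT015 (1.64%) and CUT234 (1.28%). None of these 8 was called in rrp6Δ or rtr1Δ rrp6Δ cells with all libraries in the fit. CUT628 passed as lower in rrp6Δ without WT replicate 4 (log2 -0.61, edgeR adjusted p = 0.00598) and without rrp6Δ replicate 3 (log2 -0.60, adjusted p = 0.0323). CUT484 had 86.4, 72.8, 74.0 and 64.9 CPM in WT, 52.3, 78.0 and 61.5 CPM in rrp6Δ, and 73.3, 58.6, 74.98 and 57.8 CPM in rtr1Δ rrp6Δ cells. The groups overlapped, with a log2 fold change of -0.22 ± 0.15 (SE, edgeR adjusted p = 0.227) in rrp6Δ, whose sign turned (0.077) when libraries were scaled on ORF-Ts alone.

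CUT061 had 31.1 to 35.8 CPM in WT and 26.6 to 27.5 CPM in rrp6Δ (log2 -0.30 ± 0.10 SE, edgeR adjusted p = 0.0155), a difference past the test but under the 1.5-fold minimum. The median over all ORF-Ts was -0.29, so CUT061 changed about as the median ORF-T did under this scaling. CUT234 had 15.3 to 17.0 CPM in WT and 9.91 to 12.8 CPM in rrp6Δ (log2 -0.54 ± 0.14 SE, edgeR adjusted p = 0.0049). It also stayed under 1.5-fold here and passed it, with a log2 fold change of -0.65, under RLE scaling and DESeq2, and without rrp6Δ replicate 3 (log2 -0.69, edgeR adjusted p = 0.00744). Of the 20 CUTs with the most WT reads 3 rose in rrp6Δ, and of the top 100 there were 60. Levels of single CUTs depend on their lengths, which the table does not give, so these ranks are ranks of read share.

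The 81 CUTs not called higher in rrp6Δ held 38.5% to 43.6% of CUT counts in the WT libraries but 6.57% to 7.16% in the rrp6Δ and 6.45% to 7.31% in the rtr1Δ rrp6Δ libraries. This restates the call that chose them: relative to all counts of a library they held 0.0474% to 0.0594% throughout. Nearest to no change among CUTs with a mean of at least 50 WT counts were CUT052 (log2 0.04 ± 0.24 SE), CUT551 (0.07 ± 0.17), CUT046 (-0.08 ± 0.35), CUT329 (0.08 ± 0.15), CUT554 (-0.10 ± 0.25) and CUT635 (-0.10 ± 0.28). Their signs changed with the scaling of the libraries and are not read as directions. In rrp6Δ the largest shares belonged to CUT221 (6.82%), CUT306 (5.42%), CUT222 (2.87%), CUT180 (2.77%), CUT433 (2.36%), CUT181 (2.20%), CUT150 (2.05%) and CUT841 (1.52%), all of which rose. The 10 CUTs with the most counts held 22.0% of CUT counts in WT, 28.5% in rrp6Δ and 30.8% in rtr1Δ rrp6Δ cells. The number of CUTs that made up 50% of the counts was 70, 72 and 57.

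CUT306, whose strand opposite CMC4 is printed above, was the second largest by share in rrp6Δ. It had 10, 8.39, 8.66 and 5.74 CPM in WT, 369, 454 and 397 CPM in rrp6Δ, and 436, 403, 410 and 357 CPM in rtr1Δ rrp6Δ cells. The deletion strains overlapped each other and lay far above WT, with a 49.6-fold rise in rrp6Δ (log2 5.63 ± 0.18 SE, adjusted p = 3.4e-10) and a 49.0-fold rise in the double deletion. The CMC4 mRNA on the other strand fell, from a mean of 8.13 CPM in WT to 3.97 CPM in rrp6Δ (log2 -1.03, edgeR adjusted p = 0.0176) and 4.39 CPM in rtr1Δ rrp6Δ cells (log2 -0.89, adjusted p = 0.0243). Its counts were 134, 204, 290 and 427 in the WT libraries and 73, 172 and 175 in the rrp6Δ libraries, so WT varied widely and these groups overlapped.

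Of the 16 genes opposite a matched CUT, CMC4 was the only one called lower in either comparison with WT and PIR5, a cell wall protein gene opposite CUT199, the only one called higher (log2 1.18 in rrp6Δ). These counts are near the shares of all ORF-Ts called lower (12.7%) and higher (4.16%) in rrp6Δ. With the replicate block YJR115W was called higher too (log2 0.78, edgeR adjusted p = 0.00319 in rrp6Δ). The median log2 fold change of these 16 mRNAs was -0.23 in rrp6Δ, beside -0.29 over all ORF-Ts. CUT301, opposite JLP2, had 1.66 to 3.53 CPM in WT and 22.2 to 33.4 CPM in rrp6Δ, an 11.8-fold rise, while JLP2 had a log2 fold change of -0.37 that was not called. CUT746, opposite REC102, had 4.58 to 6.74 CPM in WT and 13.7 to 17.6 CPM in rrp6Δ, a 2.80-fold rise, and REC102 was not called. CUT921, opposite the Mediator subunit gene NUT2 (YPR168W), rose 43.6-fold and NUT2 was not called.

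A single CUT fell. CUT281 had 1.80, 2.23, 2.35 and 1.74 CPM in WT, 0.950, 1.44 and 0.848 CPM in rrp6Δ, and 0.961, 0.706, 0.810 and 0.929 CPM in rtr1Δ rrp6Δ cells. Every deletion library lay below every WT library. The log2 fold change was -0.91 ± 0.22 (SE, edgeR adjusted p = 0.00304) in rrp6Δ and -1.25 ± 0.20 (adjusted p = 1.9e-04) in rtr1Δ rrp6Δ cells. The counts of CUT281 were near those of the AST of PHO84 (YML123C), the high-affinity phosphate transporter gene, with 6.10% summed difference against 8.56% expected of independent draws. That AST fell too, by 1.08 in rrp6Δ and by 1.40 in the double deletion on the log2 scale, whereas PHO84 mRNA was not called (log2 -0.11 and -0.14). At these low counts other transcripts also lie near CUT281, so the match is weaker than those within 1%.

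The number of fallen CUTs depended on single libraries. In rrp6Δ relative to WT it was 2 without WT replicate 1, 3 without WT replicate 4, 5 without rrp6Δ replicate 3 and 2 without rtr1Δ rrp6Δ replicate 1, and 1 without any other library. CUT281 was called in each of these.

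In rtr1Δ rrp6Δ cells 756 of 844 CUTs rose relative to WT and 1, CUT281, fell, with a median log2 fold change of 2.55. Of all transcripts, 34.5% were called higher and 6.55% lower. Both comparisons share the WT libraries, so their likeness is not independent. There were 753 CUTs higher in both, 10 in rrp6Δ alone, 3 in rtr1Δ rrp6Δ alone and 78 in neither. This split was made for CUTs alone, so no share over all transcripts stands beside it and it is not read as particular to CUTs. None of the 13 called in a single strain was called between the deletion strains without the replicate block, which stands for the growth day. With the block 3 of them were lower in the double deletion: CUT102, CUT634 (log2 -0.71, edgeR adjusted p = 0.0299) and CUT087 (log2 -0.64, adjusted p = 0.0448). The one with the widest gap was CUT102, with 0.982, 2.48 and 2.07 CPM in rrp6Δ and 0.431, 1.05, 0.498 and 0.703 CPM in rtr1Δ rrp6Δ cells (log2 -1.44 ± 0.37 SE, edgeR adjusted p = 0.115). Its groups overlapped through rtr1Δ rrp6Δ replicate 2, which has no rrp6Δ library of its day here, and the double deletion was lower on each of the 3 shared days. With the block it was called lower (log2 -1.71, adjusted p = 8.2e-04), as it was by DESeq2 (adjusted p = 0.0253).

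Among the 8 largest rises of the double deletion were CUT543, with 90.5 to 98.4 CPM against 0.450 to 0.910 CPM in WT (143-fold), CUT117, with 28.6 to 35.9 CPM against 0.225 to 0.353 CPM (113-fold), and CUT342, with 35.4 to 42.5 CPM against 0.253 to 0.439 CPM (107-fold). These also rose in rrp6Δ, by 124-fold, 83.8-fold and 86.5-fold. CUT180 rose 71.5-fold in rrp6Δ and 103-fold in rtr1Δ rrp6Δ cells. The number of fallen CUTs relative to WT was again set by single libraries: 2 without WT replicate 1 or 2, 4 without WT replicate 3, 5 without WT replicate 4, 2 without rrp6Δ replicate 1, 5 without rrp6Δ replicate 3, 7 without rtr1Δ rrp6Δ replicate 1 and 2 without rtr1Δ rrp6Δ replicate 3.

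The comparison of rtr1Δ rrp6Δ with rrp6Δ asked what loss of Rtr1 added where Rrp6 was absent. Of 844 CUTs 3 were higher and 2 lower, beside 0.142% and 0.758% of all transcripts. The median log2 fold change of CUTs was -0.12, against 0.00 over all transcripts, and 796 CUTs lay within 1.5-fold. This median was not particular to CUTs, since it was -0.11 for NUTs and -0.13 for SUTs, beside 0.06 for ORF-Ts. With the replicate number as a block, 6 CUTs were higher and 28 lower, beside 0.545% and 3.37% of all transcripts. All 5 calls made without the block were among these 34, and DESeq2 called 13 CUTs including the same 5. At an unadjusted p under 0.05 there were 92 CUTs, a count that includes those met by chance and was not made for all transcripts.

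CUT884 had the largest fall. It had 0.919, 0.787, 0.659 and 0.394 CPM in WT, 7.98, 4.92 and 5.56 CPM in rrp6Δ, and 1.66, 1.36, 1.90 and 1.00 CPM in rtr1Δ rrp6Δ cells. All 3 groups were separate, with the double deletion between the others. It was 4.18-fold lower in rtr1Δ rrp6Δ than in rrp6Δ cells (log2 -2.06 ± 0.26 SE, edgeR adjusted p = 0.0069) and was called under every setting tried. CUT277 had 0.0563 to 0.106 CPM in WT, 2.91, 2.68 and 2.52 CPM in rrp6Δ and 1.36, 1.44, 1.495 and 1.48 CPM in rtr1Δ rrp6Δ cells (log2 -0.90 ± 0.15 SE, adjusted p = 0.0162). Leaving out any 1 rrp6Δ library, or rtr1Δ rrp6Δ replicate 2, 3 or 4, took its adjusted p to between 0.0618 and 0.0849.

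CUT181 rose furthest. It had 4.39 to 5.27 CPM in WT, 168, 181 and 147 CPM in rrp6Δ, and 271, 296, 259 and 272 CPM in rtr1Δ rrp6Δ cells. The groups did not overlap, and the double deletion was 1.66-fold higher than rrp6Δ (log2 0.73 ± 0.10 SE, edgeR adjusted p = 0.0069, 0.0516 without rrp6Δ replicate 4). Its numbered neighbour CUT180 had 212, 219 and 191 CPM in rrp6Δ and 304, 296, 290 and 302 CPM in rtr1Δ rrp6Δ cells, a log2 difference of 0.52 ± 0.13 (SE, adjusted p = 0.116) that was not called.

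CUT479 had 2.44 to 3.04 CPM in WT, 8.23, 7.60 and 7.81 CPM in rrp6Δ and 14.1, 13.0, 11.9 and 12.1 CPM in rtr1Δ rrp6Δ cells, 1.62-fold higher than rrp6Δ (log2 0.70 ± 0.11 SE, edgeR adjusted p = 0.0162). Without rrp6Δ replicate 3 or 4, or rtr1Δ rrp6Δ replicate 1 or 2, its adjusted p lay between 0.0648 and 0.0843. The counts of CUT479 differed by 2.06% from those of a transcript named AS_Unit1128, below the 3.29% expected of independent draws. CUT479 and that transcript are thus not separable by their counts. CUT748 had 0.918 to 1.57 CPM in WT, 25.8, 35.1 and 28.8 CPM in rrp6Δ, and 48.3, 46.9, 52.9 and 49.1 CPM in rtr1Δ rrp6Δ cells (log2 0.72 ± 0.15 SE, adjusted p = 0.048). That call was lost under RLE, upper-quartile and ORF-T scaling, with adjusted p from 0.0584 to 0.0804, and without any 1 library of either deletion strain or WT replicate 2 or 4, with adjusted p from 0.0539 to 0.191. For CUT181, CUT479 and CUT748 the double deletion was farther from WT than rrp6Δ was, while CUT884 and CUT277 were nearer to it.

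**Figure D4:**
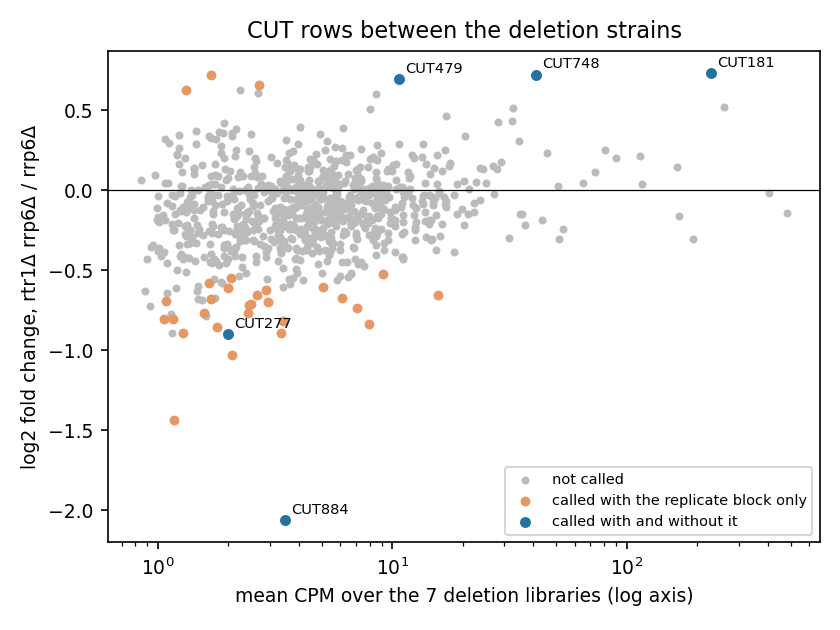
Log2 fold change between rtr1Δ rrp6Δ and rrp6Δ cells (vertical axis) against mean CPM over the 7 deletion libraries (horizontal log axis), 1 point per CUT. The CUTs called with and without the replicate block are labelled, and those lower with the block alone lie between -0.52 and -1.44.

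**Figure D5:**
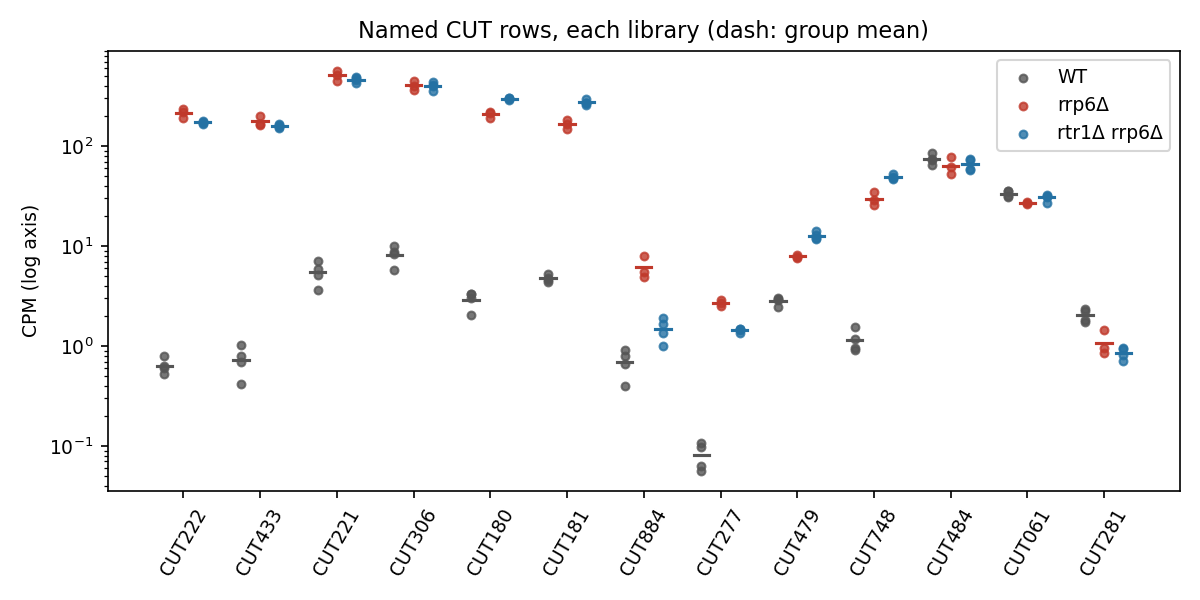
CPM on a log axis in each library of 13 CUTs, with WT in grey, rrp6Δ in red, rtr1Δ rrp6Δ in blue and a dash at each group mean. CUT222 through CUT181 show the large rises in both deletion strains, CUT884 through CUT748 the CUTs that differed between them, and CUT484, CUT061 and CUT281 the CUTs that did not rise.

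CUT levels also varied with the replicate number, taken here as the growth day. The sample titles number the RNA-Seq preps in the same way, so growth day and preparation cannot be told apart. A test of the replicate number gave an adjusted p of at most 0.05 for 234 CUTs (27.7%), beside 43.0% of all transcripts. Replicate 1 was highest in all 3 strains for 105 of these CUTs and lowest for 33, counts that were not made for other transcripts. CUT602 had 6.96, 15.6, 18.4 and 13.8 CPM in WT, 5.57, 24.6 and 16.2 CPM in rrp6Δ, and 5.27, 16.01, 22.0 and 14.8 CPM in rtr1Δ rrp6Δ cells, so replicate 1 was low in every strain (edgeR adjusted p for day = 3.1e-06). CUT567 ran the other way, with 17.9, 7.84, 8.97 and 2.19 CPM in WT, 35.6, 18.3 and 8.18 CPM in rrp6Δ, and 39.7, 14.04, 15.1 and 7.74 CPM in rtr1Δ rrp6Δ cells (adjusted p for day = 2.4e-06).

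The counts of CUT567 differed by 4.38% from those of the snoRNA SNR52, which had 510, 238, 296 and 88 counts in WT and 1158, 697 and 355 counts in rrp6Δ, a difference above the 2.30% expected of independent draws, and how many reads the CUT and SNR52 share was not tested. CUT567 was not called in any comparison of strains without the replicate block. Each deletion library was above the WT library of its own day, and with the block CUT567 was called higher in rrp6Δ (log2 1.17, edgeR adjusted p = 1.3e-05) and in rtr1Δ rrp6Δ cells (log2 1.08, adjusted p = 1.1e-05). Replicates of CUTs in WT had a median SD of 0.374 on the log2 CPM scale, larger than 0.214 in rrp6Δ and 0.223 in rtr1Δ rrp6Δ cells. The same median for ORF-Ts was 0.176, 0.175 and 0.182. Of the 3 strains, WT thus had the widest spread of CUT values between replicates. It also had the fewest CUT counts, with a median CUT at 23.0 counts or fewer per library against at least 124 in the deletion strains. Whether the wider spread in WT goes beyond counting error was not tested.

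Of 32 genes listed for CUT synthesis, termination and decay, 2 rose and 1 fell in rrp6Δ cells, the one that fell being the deleted RRP6. Over all ORF-Ts 4.16% were called higher and 12.7% lower, so this is near or below the background. NRD1 had a mean of 64.6 CPM in WT and 198 CPM in rrp6Δ (log2 1.62, edgeR adjusted p = 2.7e-06), and 197 CPM in rtr1Δ rrp6Δ cells (log2 1.61, adjusted p = 1.8e-06). Its partner genes NAB3 (log2 0.17) and SEN1 (log2 -0.03) were not called. NAB2, which encodes a nuclear poly(A)-binding protein, rose by 0.71 in rrp6Δ and by 0.76 in the double deletion on the log2 scale. SSU72, the gene of another RNAPII phosphatase and termination factor, was called in the double deletion alone (log2 0.76, adjusted p = 3.2e-05, beside 0.53 in rrp6Δ). Its difference between the deletion strains was not called (log2 0.23). None of the other listed exosome, TRAMP, cap-binding or 5′ to 3′ decay genes was called in a comparison with WT, apart from the deleted RRP6 and RTR1.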

How the data were processed

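Total RNA was extracted from exponentially growing yeast and made into strand-specific libraries. Per the labels and the study's methods, the authors aligned reads to sacCer3 with STAR 2.5.2b and used featureCounts (Subread 1.5.0) to count reads per annotated transcript. The deposited values used here are whole-number counts per transcript and library, which the table's legend calls normalized but whose totals differ between libraries, so they were tested as raw counts. Comparison columns of the authors (fold changes, p-values, sums and averages) were not used. Nor was 1 per-sample column, since its header did not name a single genotype, and 6 emptied lines were left out. Of 16 samples, 11 were analysed.

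Counts were tested with edgeR 4.0.16 (quasi-likelihood F test, TMM scaling, filterByExpr, which removed 0 transcripts), with 1 mean per strain over all 11 libraries and Benjamini-Hochberg adjustment. CPM values use TMM-scaled library sizes. The fit was tested on simulated data with a small set of transcripts changed, equally up and down, and no effect of the replicate number. In the real data many more transcripts rose than fell, so the simulation does not test the scaling or the lack of a block. Same-numbered libraries deviated together from their strain means (correlations over all transcripts 0.242 to 0.829), and the study's methods state a shared growth day, so a replicate block was fitted as an alternative. P-values rest on separately grown cultures of 1 strain each. Other alternatives were RLE, upper-quartile and ORF-T scaling, DESeq2, no filter or a mean of at least 10 counts, only the 2 groups compared, other fold minimums, each library left out, and identical transcripts left out. Leaving out replicate 1 of every strain, and CUTs within 1% of another transcript, were added after seeing the data. The CUTs named are the 8 largest rises (and up to 8 falls) in each comparison among called CUTs with a mean of at least 50 counts in a group and groups that do not overlap, the 8 with the largest share of CUT counts in WT and in rrp6Δ, the 6 nearest to no change, and CUT222. Others (CUT087, CUT102, CUT301, CUT567, CUT602, CUT634, CUT746 and CUT921) were chosen after their values were seen. The members, lists and rules were chosen with earlier results of these data known. Gene symbols were matched to RefSeq R64 for 5586 of 5836 ORF-Ts.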

Additional observations from a re-analysis of the deposited data

Results flagged for a closer look

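Dixon's ratio was applied to 72 groups of 4 libraries, each CUT named by the rule and the CUT share of counts in WT and in rtr1Δ rrp6Δ cells, and marked 6 values. Chance alone marks about 1 in 20 such groups. In WT, CUT338 had 0.0328 CPM in replicate 2 and 0 in the other replicates, which is a single count. CUT234 had 15.3 CPM in WT replicate 3 against 16.7 to 17.0 CPM in the others, and CUT329 had 6.50 CPM in WT replicate 1 against 4.67 to 4.83 CPM. In rtr1Δ rrp6Δ cells all 3 marked values were in replicate 1: CUT150 had 206 CPM against 155 to 160 CPM, CUT551 had 21.4 CPM against 14.7 to 15.3 CPM, and CUT635 had 1.52 CPM against 1.06 to 1.12 CPM.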

How the results depend on the processing

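The counts of CUTs higher than WT kept within 1.5 times of the values given under every alternative: with each library left out, the range was 756 to 770 for rrp6Δ cells and 750 to 757 for the double deletion, and without the CUTs within 1% of another transcript the counts were 703 and 696. Counts of CUTs lower than WT were small and moved. In rrp6Δ there were 4 under RLE scaling and under DESeq2, 3 with the replicate block, 8 with no fold minimum and 0 at a 2-fold minimum, and 1 to 5 with each library left out. In rtr1Δ rrp6Δ cells there were 7 under RLE scaling, under DESeq2 and with no fold minimum, 4 with only the 2 groups fitted, 3 with the replicate block, and 1 to 7 with each library left out. Without replicate 1 of every strain there were 2 and 4.

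Between the deletion strains, higher CUTs numbered 6 with the replicate block and 0 at a 2-fold minimum, and 0 to 3 with each library left out. Lower CUTs numbered 28 with the block, 9 under DESeq2, 4 under ORF-T scaling and 1 at a 2-fold minimum, and 1 to 3 with each library left out. The block moved no other count of calls by over 1.5 times besides these and the lower counts above. The median log2 fold change in rrp6Δ was 2.86 under upper-quartile and 2.97 under ORF-T scaling, and in rtr1Δ rrp6Δ cells 2.78 under ORF-T scaling. The CUT share without small nuclear and nucleolar RNAs was 0.790% in rtr1Δ rrp6Δ cells, and relative to ORF-T counts it was 0.153% in WT, 1.10% in rrp6Δ and 1.01% in rtr1Δ rrp6Δ cells. The cause was not tested for any of these.

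Of the named CUTs without a call, several log2 fold changes in rrp6Δ turned sign. Under ORF-T scaling CUT484 was 0.077, CUT727 0.045, CUT155 0.18, CUT046 0.23, CUT554 0.21 and CUT635 0.20. Under upper-quartile scaling CUT155 was 0.062, CUT046 0.12, CUT554 0.094 and CUT635 0.088. Under RLE scaling CUT052 was -0.076, CUT551 -0.045 and CUT329 -0.031, and under DESeq2 they were -0.075, -0.045 and -0.029. With the replicate block CUT052 was -0.032. With each library left out CUT052 ran from -0.16 to 0.18, CUT551 from -0.037 to 0.20, CUT046 from -0.38 to 0.19, CUT554 from -0.35 to 0.14 and CUT635 from -0.36 to 0.14, and without replicate 1 of every strain CUT052 was -0.15. The median CUT had at most 23.0 counts per WT library and at least 124 per deletion library, although library totals were similar, so log2 fold changes against WT rest on fewer counts on the WT side.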
